A study of Mus musculus with 24 samples.

Results

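The immediate early genes Egr1, Fos, Junb, Jun, Dusp1, Ier2, Ier3, Zfp36 and Klf2 were followed across 4 cell types of the bone marrow in 2 mouse strains. They were chosen by symbol: every probe annotated to one of the 9 symbols was taken, which gave 10 probes of the 45281 on the array and 9 of its 19057 genes. Of these, 8 genes passed the detection filter (detected on all 3 arrays of at least 1 group) and were tested among 7925 genes. Ier2 did not pass.

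Immediate early genes are transcribed within minutes of a signal, without new protein synthesis, because the factors that switch them on are already bound or waiting in the cell. MAP kinases phosphorylate ternary complex factors, which sit with SRF on CArG boxes, and CREB acts on cAMP response elements; the transcripts are short-lived. In blood-forming cells the family is known both from growth factor and cytokine signalling and from the isolation, staining and sorting of cells, which by themselves can induce it.

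The samples were total RNA from primary bone marrow of C57Bl/6 mice (B6 below) and DBA2 mice (D2 below). From each strain came LSK multilineage cells (the stem and early progenitor fraction), committed L-S-K+ progenitors, Gr1+ myeloid cells and Ter119+ erythroid cells, with 3 arrays in each of the 8 groups and 24 in all. The labels name no treatment, age, sex, transgene or sorting time, and do not say whether arrays of one group came from separate animals or pools, so p-values here reflect how far these arrays spread, which may be technical. A fraction of bulk marrow was measured each time, so fewer cells of a type and less RNA per cell cannot be told apart.

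Levels below are log2 normalized intensities, and differences between groups are log2 differences of group means ± the standard error of the fit (3 arrays a group). A gene was called where limma's moderated test gave an adjusted p under 0.05 over the 7925 genes. Levels of different probes are not comparable, so each gene is compared with itself across samples.

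The upstream sequences of 3 members are shown because they carry the response elements through which this family is known to be switched on, and because these 3 genes moved together across the arrays. Upstream sequences of 7 of the 9 members were matched in RefSeq (GRCm38.p6), all but Egr1 and Ier2, and both strands of the 250 bases before the gene start were searched. In the lines that follow the 200 bases directly before the start are given 5′ to 3′ on the gene's strand. Capitals mark a TATA box (TATAAA) and the short TGACG form of the cAMP response element in Fos (chr12:85473690-85473889, plus strand), a full cAMP response element (TGACGTCA) in Dusp1 (chr17:26508473-26508672, minus strand), and a CArG box and an EGR site (GCGNGGGCG) in Zfp36 (chr7:28379229-28379428, minus strand).
Fos: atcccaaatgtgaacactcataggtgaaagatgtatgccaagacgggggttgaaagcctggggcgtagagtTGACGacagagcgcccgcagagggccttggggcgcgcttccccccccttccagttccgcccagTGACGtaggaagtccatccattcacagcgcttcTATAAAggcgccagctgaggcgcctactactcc
Dusp1: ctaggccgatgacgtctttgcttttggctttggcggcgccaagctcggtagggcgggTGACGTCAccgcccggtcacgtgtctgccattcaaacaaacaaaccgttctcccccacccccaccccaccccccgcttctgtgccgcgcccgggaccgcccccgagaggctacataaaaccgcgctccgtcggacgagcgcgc
Zfp36: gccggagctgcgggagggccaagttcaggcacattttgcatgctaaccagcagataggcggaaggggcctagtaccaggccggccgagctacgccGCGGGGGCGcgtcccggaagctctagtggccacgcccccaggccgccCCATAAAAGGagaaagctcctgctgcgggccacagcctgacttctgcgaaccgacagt

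A CArG box was found in 1 of the 7 windows (Zfp36, starting 58 bases before the start), against 1.47% of the 32851 windows of all genes in the table. The full cAMP response element was found in 1 of 7 (Dusp1, 143 bases before the start), against 1.55%. Its short form TGACG, which the full element contains, was in 4 of 7 (Fos, Junb, Dusp1 and Klf2), against 17.8%. The EGR site was in 2 of 7 (Zfp36 and Klf2), against 4.70%, the TATA box in 1 of 7 (Fos, 33 bases before the start), against 12.4%, and the AP-1 site TGANTCA in none, against 6.75%. A match describes letters in a window and is not evidence of binding. Bases farther upstream than 250 were not searched, so a gene without a match may carry the element there.

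The 24 arrays detected between 12.6% (D2 LSK replicate 2) and 27.4% (B6 Ter119+ replicate 3) of the probes at p under 0.01, and their number limits the precision. Before normalization D2 LSK replicate 2 was dimmer than all 3 B6 LSK arrays for every tested member but Klf2. Its high levels given below arose in the quantile normalization. D2 progenitor replicate 1 was likewise dimmer than all 3 B6 progenitor arrays for Fos, Jun, Dusp1 and Zfp36 before normalization. Arrays of one group correlated at 0.924 to 0.990 across genes. In one alternative 3 arrays named in earlier results of these data are left out together, the replicate number of the B6 Ter119+ array being inferred. Each had the lowest mean correlation with the other arrays of its group, 0.927 for D2 LSK replicate 2, 0.965 for D2 progenitor replicate 1 and 0.945 for B6 Ter119+ replicate 2. They were not the 3 lowest of all arrays, as D2 LSK replicates 1 and 3 had 0.957 and 0.956. Each fraction was highest for its own markers, but the Ter119+ fraction also carried B cell transcripts (mean level of 5 markers 9.17 to 9.79, against 5.01 to 6.73 in the other fractions) and neutrophil transcripts (8 markers, 10.3 to 10.9, against 12.9 to 13.1 in Gr1+ cells). Monocyte and macrophage markers stayed between 4.34 and 4.71 in LSK cells and progenitors.

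Egr1, Fos, Junb, Dusp1, Ier3 and Zfp36 were detected on all 24 arrays. Jun was detected on 21 and Klf2 on 18, with Klf2 below detection on all 3 arrays of B6 progenitors. Ier2, a small nuclear protein of the early response, was detected on 2 arrays (B6 LSK replicate 3 and B6 Gr1+ replicate 1), and its levels on the 24 arrays lay between 4.17 and 5.49. A second Junb probe was detected on none of the 24, so Junb rests on 1 probe.

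**Figure D1:**
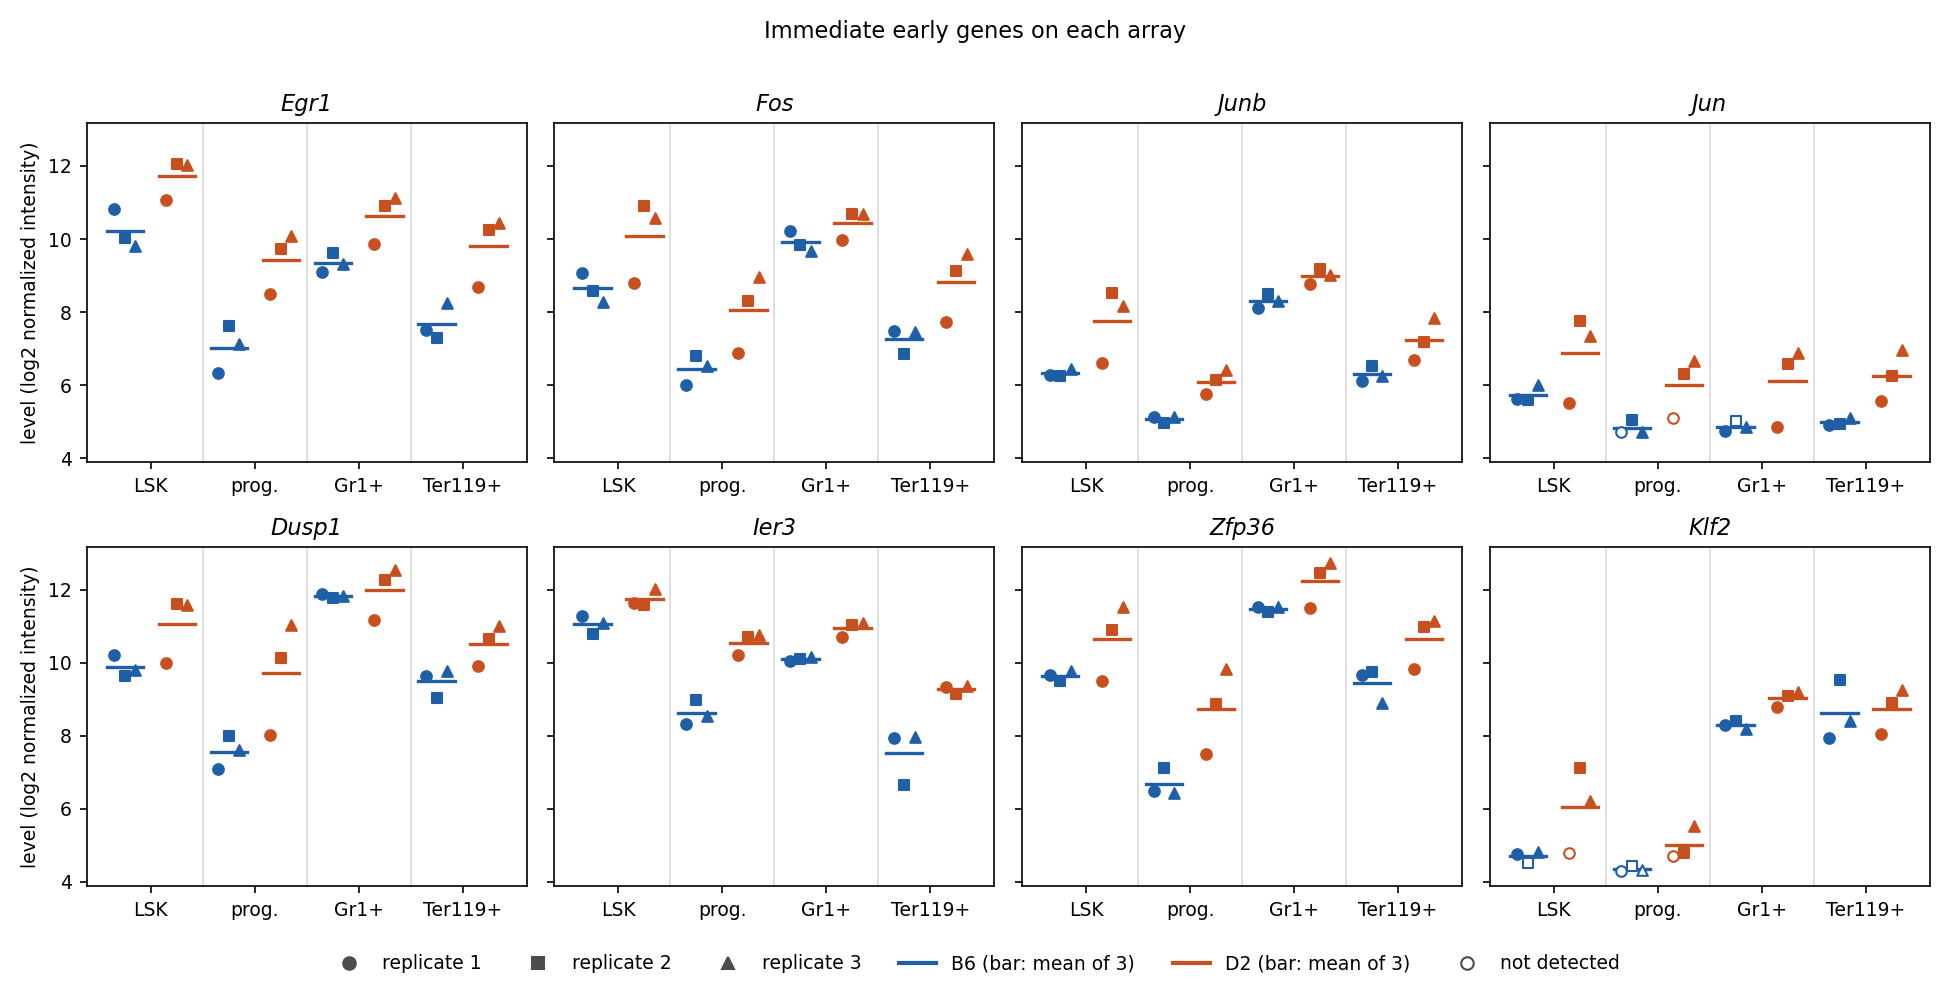
Level of each of the 8 tested immediate early genes (log2 normalized intensity, 1 panel per gene) on the 24 arrays, by cell type and strain. Points are arrays, with a shape for each replicate number and open symbols where the probe was not detected; bars are means of 3. D2 means lie above B6 means in all 32 pairs after quantile normalization (26 of 32 under median scaling), and the D2 circle (replicate 1) lies lowest of its group in most.

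The first question was whether the 2 strains differ in these genes within each cell type. Immediate early transcripts were higher in D2 than in B6 in all 32 gene and cell type means after quantile normalization, whereas median scaling turned 5 members in LSK cells and 1 in Ter119+ cells. The differences that passed the test were all higher in D2. In LSK cells 3 of 8 members were called higher (Egr1, Junb and Klf2), where 2.85% of all tested genes were. In progenitors it was 4 of 8 (Egr1, Dusp1, Ier3 and Zfp36), against 2.37%, and in Ter119+ cells 4 of 8 (Egr1, Fos, Junb and Ier3), against 8.13%. No member was called in Gr1+ cells, against 2.33% of all genes; 3 had an unadjusted p under 0.05 there (Egr1, Jun and Ier3). That count of 0 depended on the setting, with 1 call without background correction and 4 with only the Gr1+ arrays in the fit. The other counts depended on it too. With only the groups compared in the fit, 0 members were called in LSK cells, 3 in progenitors and 2 in Ter119+ cells. The share of all genes called was not computed for that fit. The median difference of the 8 members was 1.27 in LSK cells, 1.78 in progenitors, 0.74 in Gr1+ cells and 1.24 in Ter119+ cells, while the median of all genes lay between -0.06 and 0.00.

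Averaged over the 4 cell types, all 8 members were called higher in D2, against 9.21% of all genes. Under median scaling 0 of the 8 were called and under 75th percentile scaling 2. Higher calls over all genes fell under these scalings too, from 730 to 73 and 152. The averaged difference ran from 0.71 ± 0.21 for Klf2 to 1.83 ± 0.23 for Egr1, with a median of 1.23. The test for unequal strain differences between cell types (limma's F test) called none of the 8, against 5.78% of all genes; the smallest adjusted p was 0.0610, for Ier3, which was also the only member with an unadjusted p under 0.05. Strain differences of different size in the cell types are therefore given below as values only.

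The size of these differences depended on how the arrays were scaled. Under median scaling the median of all genes itself moved to -0.91 in LSK cells, -0.45 in progenitors, -0.10 in Gr1+ cells and -0.41 in Ter119+ cells, and no member was called in any cell type or on average. Of all strain calls in LSK cells, 34.2% were higher in D2 after quantile normalization, 2.75% after median scaling and 5.88% after 75th percentile scaling. The same split went from 42.4% to 5.08% and 7.53% in progenitors, from 41.2% to 30.7% and 30.8% in Gr1+ cells, from 47.6% to 8.73% and 15.2% in Ter119+ cells, and from 44.5% to 6.94% and 11.4% for the average. Taken relative to the median of all genes, all 8 members stayed above it in all 4 cell types under median scaling, with medians above it of 0.86, 1.64, 0.72 and 1.23 in the order given.

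**Figure D2:**
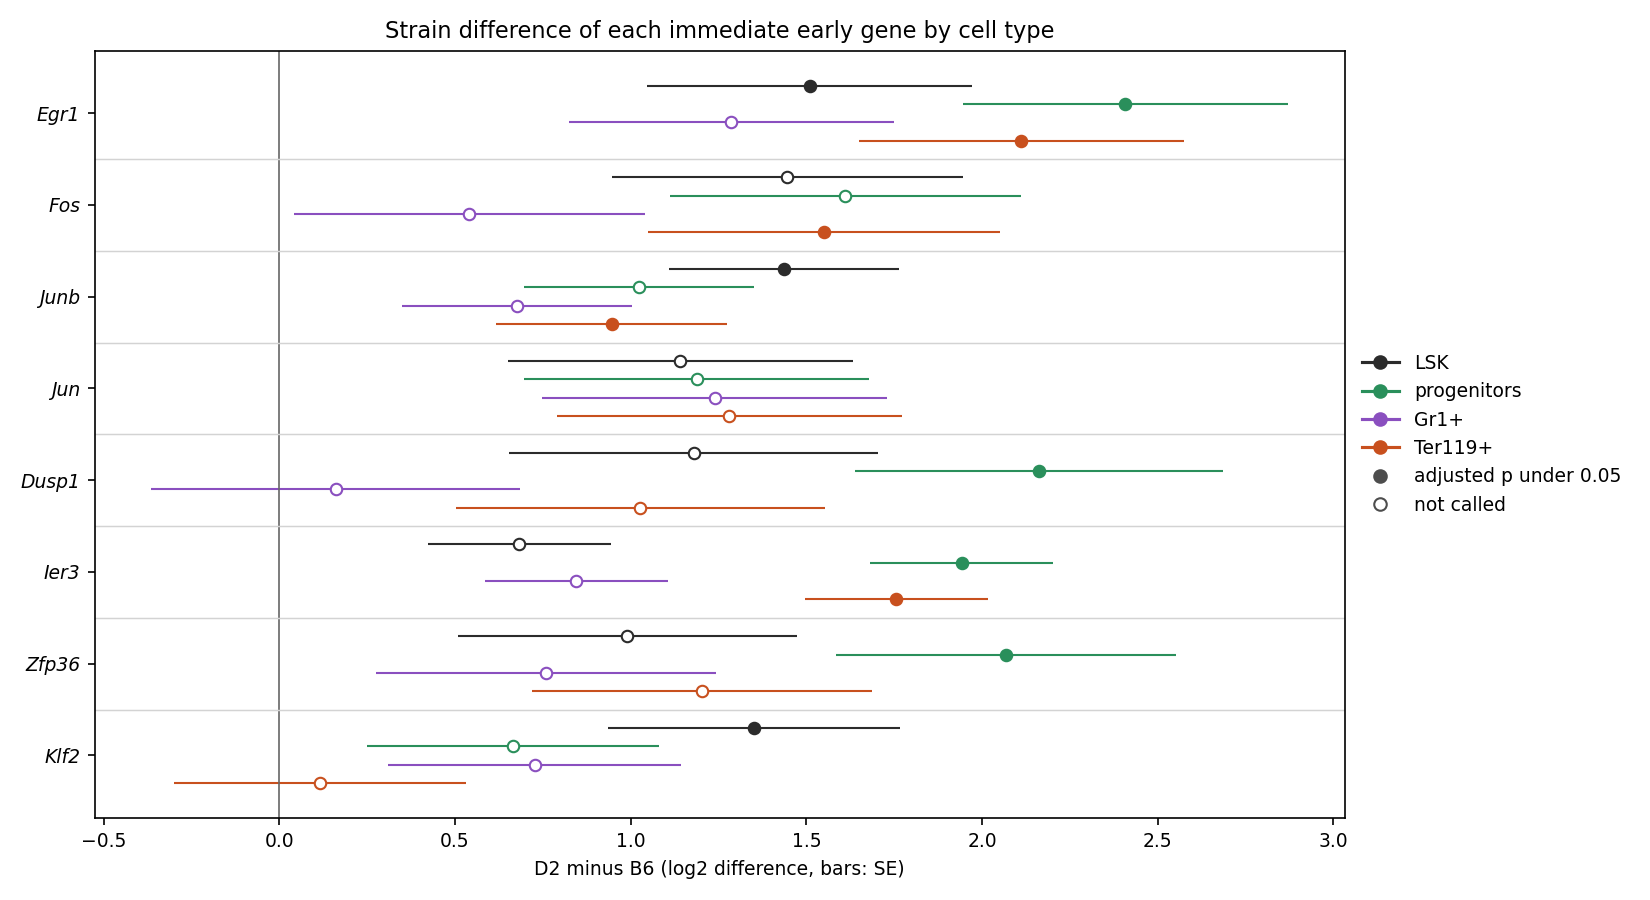
Difference D2 minus B6 (log2) of each gene in the 4 cell types, with bars for the standard error of the fit; filled points have an adjusted p under 0.05. All 32 points lie above 0 after quantile normalization (26 under median scaling), and the 11 filled ones are spread over LSK cells, progenitors and Ter119+ cells.

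Among the transcription factors, Egr1, a zinc finger factor that is a classical target of SRF and ternary complex factors, was called in 3 cell types. Its levels in LSK cells were 10.81, 10.02 and 9.81 on the B6 arrays and 11.07, 12.07 and 12.03 on the D2 arrays. The strains did not overlap, but D2 replicate 1 lay nearer to the highest B6 array than to the other two D2 arrays, and the difference was 1.51 ± 0.46 (limma, adjusted p = 0.0426). In progenitors the levels were 6.34, 7.63 and 7.12 in B6 and 8.49, 9.74 and 10.08 in D2. The lowest D2 array lay above the highest B6 array, and the difference of 2.41 ± 0.46 was the widest of the 32 (limma, adjusted p = 0.00109). In raw intensity D2 progenitor replicate 1 (196.2) lay below B6 progenitor replicates 2 and 3 (227 and 441). Ter119+ cells read 7.50, 7.30 and 8.25 in B6 and 8.68, 10.26 and 10.45 in D2, again without overlap (2.11 ± 0.46, limma, adjusted p = 0.00256). Gr1+ cells read 9.10, 9.61 and 9.33 in B6 and 9.86, 10.92 and 11.12 in D2; these arrays did not overlap either, and the difference of 1.29 ± 0.46 missed the threshold (limma, adjusted p = 0.135). The LSK call of Egr1 was lost without any one of 11 arrays (B6 LSK replicates 2 and 3, D2 LSK replicates 2 and 3, and 7 arrays of other cell types), with differences of 1.31 to 1.51 and adjusted p of 0.0502 to 0.189.

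Fos, the AP-1 subunit that pairs with a JUN protein, was called in Ter119+ cells. Its levels there were 7.49, 6.85 and 7.46 in B6 and 7.73, 9.13 and 9.60 in D2, so that D2 replicate 1 sat close to the B6 arrays while the other two lay more than 1 log2 unit above them. The difference was 1.55 ± 0.50 (limma, adjusted p = 0.0349). The call was lost without B6 Ter119+ replicate 2 (1.34), B6 Ter119+ replicate 3 (1.65), D2 Ter119+ replicate 2 (1.40) or D2 Ter119+ replicate 3 (1.16), with adjusted p up to 0.200. In LSK cells Fos read 9.08, 8.57 and 8.29 in B6 and 8.78, 10.91 and 10.58 in D2. D2 replicate 1 lay inside the B6 range there, and the difference of 1.45 ± 0.50 was not called (limma, adjusted p = 0.0818). Progenitors differed by 1.61 ± 0.50 (limma, adjusted p = 0.0636) and Gr1+ cells by 0.54 ± 0.50 (limma, adjusted p = 0.852).

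Junb, an AP-1 subunit that can also restrain JUN and limits myeloid expansion in mice, was called in LSK and Ter119+ cells. The LSK arrays read 6.29, 6.25 and 6.43 in B6 and 6.61, 8.51 and 8.16 in D2. All 3 D2 arrays lay above the B6 arrays, but replicate 1 only narrowly, and the difference was 1.44 ± 0.33 (limma, adjusted p = 0.00497). In Ter119+ cells B6 read 6.12, 6.52 and 6.24 and D2 6.69, 7.19 and 7.83, a difference of 0.95 ± 0.33 at the edge of the threshold (limma, adjusted p = 0.0494). That call was lost without any one of 19 arrays (B6 Ter119+ replicates 1, 2 and 3, D2 Ter119+ replicates 2 and 3, and 14 of other cell types), with adjusted p of 0.0511 to 0.279, and the lowest difference was 0.65 (without D2 Ter119+ replicate 3). Progenitors (1.02 ± 0.33, limma, adjusted p = 0.0742) and Gr1+ cells (0.68 ± 0.33, limma, adjusted p = 0.373) did not overlap between strains and were not called.

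Jun, the partner of Fos in AP-1, was near the detection limit in B6 outside LSK cells. In LSK cells it read 5.61, 5.59 and 6.00 in B6 and 5.52, 7.77 and 7.35 in D2, and in Gr1+ cells 4.73, 5.003 and 4.85 in B6 and 4.84, 6.58 and 6.88 in D2. D2 replicate 1 lay below all 3 B6 arrays in LSK cells and among them in Gr1+ cells. In both fractions D2 replicates 2 and 3 lay above the B6 arrays. For D2 LSK replicate 2 this arose in the normalization, as its raw intensity of 101.7 lay below the 115.3 to 185.8 of the B6 arrays. Its 4 differences were alike in size (1.14 to 1.28 ± 0.49) and none was called in a single cell type (limma, adjusted p 0.0768 to 0.226), whereas the average of 1.21 ± 0.25 was (limma, adjusted p = 0.000714).

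Klf2, a zinc finger factor best known for keeping lymphocytes quiescent, was called in LSK cells. It read 4.77, 4.51 and 4.82 in B6 and 4.79, 7.13 and 6.23 in D2, so that D2 replicate 1 lay within the B6 range, not detected. The difference of 1.35 ± 0.42 (limma, adjusted p = 0.0438) came from D2 replicates 2 and 3. The 7.13 of D2 replicate 2 stood on a raw intensity of 95.1, inside the raw B6 range of 90 to 109.9. D2 replicate 3 had a raw intensity of 159.2. The call was lost without any one of 17 arrays (B6 LSK replicates 1, 2 and 3, D2 LSK replicates 2 and 3, and 12 of other cell types), with adjusted p of 0.0516 to 0.306, and without D2 LSK replicate 2 the difference was 0.81. In progenitors Klf2 was not detected on any B6 array and was detected on 2 of the 3 D2 arrays. The measured difference there, 0.66 ± 0.42, rests in part on levels below detection and was not called (limma, adjusted p = 0.577). Ter119+ cells overlapped fully, at 7.95, 9.52 and 8.42 in B6 and 8.06, 8.91 and 9.26 in D2 (0.12 ± 0.42, limma, adjusted p = 0.900).

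Dusp1, the nuclear phosphatase that switches MAP kinases off, was called in progenitors. The B6 arrays read 7.09, 8.00 and 7.61 and the D2 arrays 8.03, 10.13 and 11.03. D2 replicate 1 lay just above the highest B6 array while the other two stood more than 2 log2 units above it, and the difference was 2.16 ± 0.52 (limma, adjusted p = 0.0110). In raw intensity D2 progenitor replicate 1 (165.5) lay below all 3 B6 progenitor arrays (226 to 603.2). The call was lost without B6 progenitor replicate 1 (1.92), D2 progenitor replicate 2 (1.96) or D2 progenitor replicate 3 (1.51), with adjusted p of 0.0591 to 0.128. In Gr1+ cells Dusp1 read 11.89, 11.78 and 11.84 in B6 and 11.18, 12.26 and 12.55 in D2. D2 replicate 1 was the lowest of those 6 arrays and the other two the highest, and the difference was 0.16 ± 0.52 (limma, adjusted p = 1.00).

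Zfp36 encodes tristetraprolin, which binds AU-rich elements and speeds the decay of cytokine and early response transcripts. In progenitors it read 6.48, 7.13 and 6.43 in B6 and 7.52, 8.88 and 9.84 in D2. The strains did not overlap, the D2 arrays spread over more than 2 log2 units, and the difference was 2.07 ± 0.48 (limma, adjusted p = 0.00783); without D2 progenitor replicate 3 it was 1.52 and no longer called (adjusted p = 0.0948). In raw intensity D2 progenitor replicate 1 (138.7) lay below all 3 B6 progenitor arrays (168.9 to 285). The other 3 cell types gave 0.76 to 1.20 and were not called.

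Ier3, a stress-inducible protein that protects cells from death and acts on ERK signalling, was the member whose D2 arrays lay closest together after quantile normalization. In progenitors it read 8.32, 8.97 and 8.56 in B6 and 10.22, 10.70 and 10.75 in D2, and in Ter119+ cells 7.93, 6.67 and 7.98 in B6 and 9.34, 9.15 and 9.36 in D2. After that normalization the 3 D2 arrays lay close together and more than 1 log2 unit above the highest B6 array in both. Raw intensities in progenitors were 466, 483.6 and 1087.7 in B6 and 505.1, 3375.4 and 1492.8 in D2. In Ter119+ cells they were 553.2, 150.7 and 594.4 in B6 and 588.9, 641.5 and 773.5 in D2. Before normalization D2 replicate 1 thus lay below B6 replicate 3 in both. The differences were 1.94 ± 0.26 (limma, adjusted p = 1.11e-05) and 1.76 ± 0.26 (limma, adjusted p = 3.69e-05). Under median scaling neither was called (limma, adjusted p = 0.759 and 0.543). LSK cells (11.30, 10.80 and 11.09 in B6, 11.64, 11.59 and 12.01 in D2) and Gr1+ cells (10.05, 10.11 and 10.15 in B6, 10.72, 11.03 and 11.10 in D2) did not overlap between strains either. Their smaller differences of 0.68 ± 0.26 and 0.84 ± 0.26 were not called (limma, adjusted p = 0.124 and 0.0592).

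The second comparison was between D2 arrays of different replicate number. After quantile normalization D2 replicate 1 was the lowest array of its group in all 4 cell types for 7 of the 8 members (all but Ier3). This was true of 258 of the 7925 genes (3.26%). In LSK cells the order depended on that normalization. Before it, D2 LSK replicate 2, which detected 12.6% of the probes, was dimmer than replicate 1 for every tested member but Klf2. Raw intensities of replicates 2 and 1 were 670.1 and 1505.9 for Egr1 and 450.6 and 778.3 for Dusp1. No member was lowest in all 4 cell types on any other replicate number of either strain. D2 replicate 1 lay above the B6 mean in 27 of 32 gene and cell type values and above all 3 B6 arrays in 22, with a median of 0.43. D2 replicates 2 and 3 lay above the B6 mean in 32 of 32 and above all B6 arrays in 31 each, with medians of 1.55 and 1.74. Such shares were not computed over all genes, and the 32 values come from the same few arrays. For Fos, Jun, Dusp1 and Zfp36 in progenitors, D2 replicate 1 lay above all B6 arrays only after the quantile normalization.

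Averaged over the 8 members and the 4 cell types, the level was 7.85, 7.91 and 7.89 for B6 replicates 1, 2 and 3 and 8.31, 9.38 and 9.61 for D2 replicates 1, 2 and 3. The 3 B6 means lay within 0.1 log2 unit, and the D2 means were spread over more than 1. Ier3 was the exception: its means over the cell types were 9.40, 9.14 and 9.44 in B6 and 10.48, 10.62 and 10.80 in D2. The pattern was noticed in these data and then described on them. The labels do not say whether one number marks one animal or one day.

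Leaving out arrays by number, an alternative chosen after this pattern was seen, moved the calls. The share of all genes called was not computed for these fits. Without the 4 D2 arrays of replicate 1 the members called higher were 7 in LSK cells, 7 in progenitors, 4 in Gr1+ cells and 7 in Ter119+ cells. With D2 replicate 1 as the lone D2 array of each cell type, assumed to vary like the other groups, they were 0, 1 (Ier3), 0 and 1 (Ier3), and 3 of 8 on average (Egr1, Junb and Ier3). If same-numbered arrays of a strain shared an animal, the p-values of the average would be too small. Within strain and number, the correlation of the members' levels was 0.58 for Egr1, 0.70 for Fos, 0.50 for Junb, 0.84 for Jun, 0.69 for Dusp1, 0.81 for Zfp36, 0.32 for Klf2 and -0.02 for Ier3, against 0.02 over all genes. With the 4 cell types averaged first for each strain and number, which leaves 3 means a strain, all 8 members were called higher, against 6.83% of all genes (limma, adjusted p 7.96e-06 for Ier3 to 0.0382 for Klf2). That fit, also chosen after the pattern was seen, still takes part of each gene's spread from all genes.

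**Figure D3:**
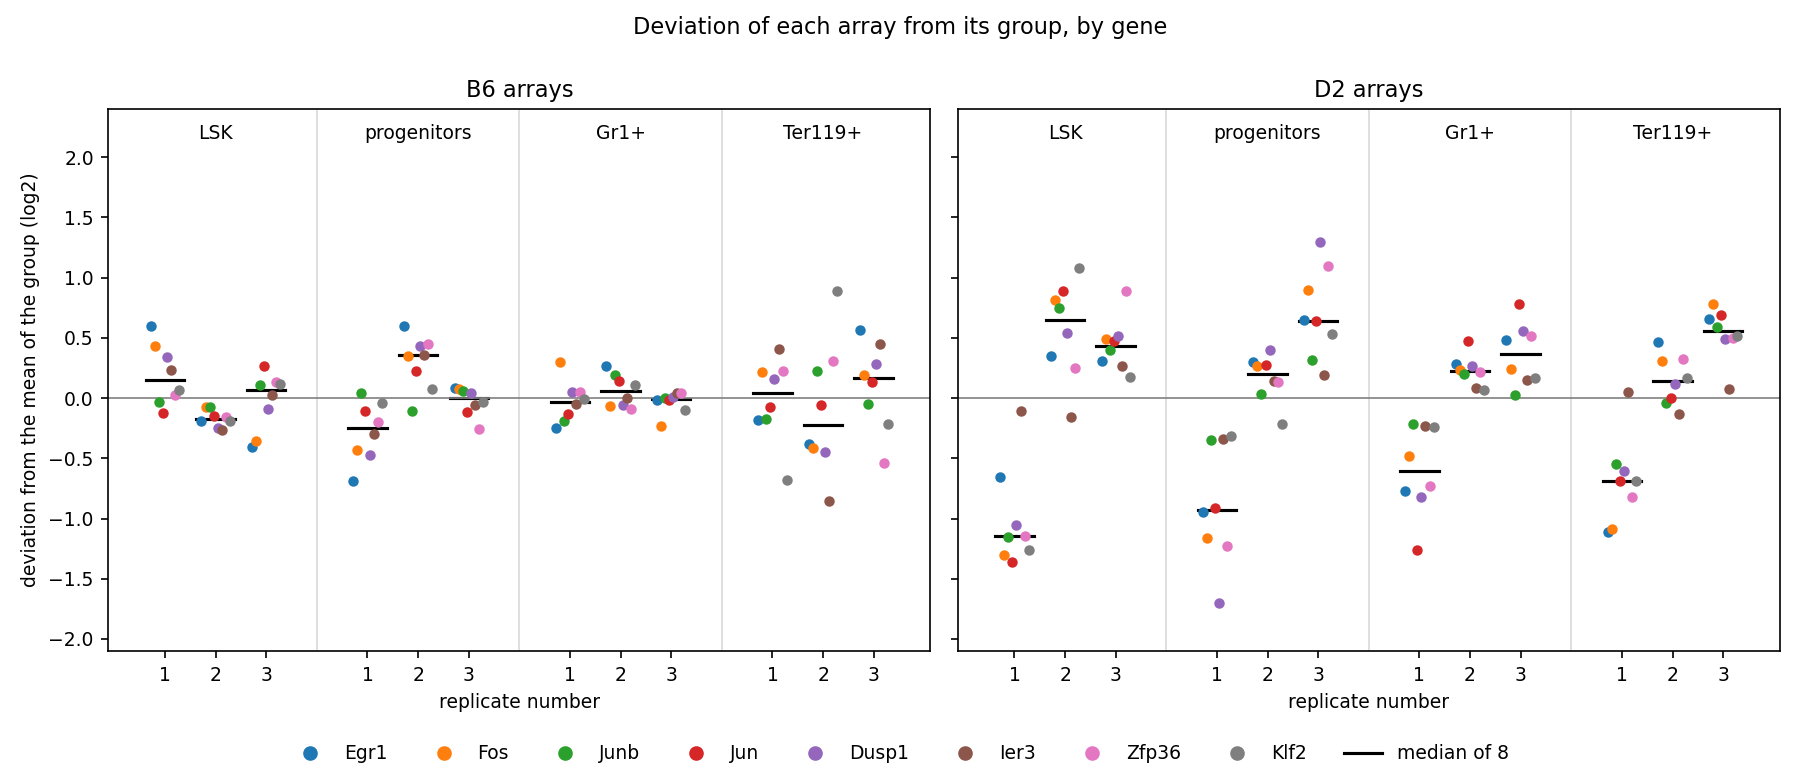
Deviation of each array from the mean of its group (log2) for the 8 genes, B6 arrays on the left and D2 arrays on the right, by cell type and replicate number; the black bar is the median of the 8. The median of D2 replicate 1 is -1.15, -0.93, -0.60 and -0.69 in LSK, progenitor, Gr1+ and Ter119+ cells, and the B6 medians lie between -0.25 and 0.35.

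The members moved together from array to array inside the groups, and the D2 replicate 1 arrays described above are part of this. After each group's mean was taken away, the correlation over the 24 arrays had a median of 0.72 for the 28 pairs of members and was above 0 for 27 of them, with a range of -0.24 to 0.92. The median over all other genes of their mean correlation with the members was 0.00. All members share the same 24 arrays and their scaling, so these values are a description. They include the D2 replicate 1 arrays, whose median deviations were -1.15, -0.93, -0.60 and -0.69 in LSK, progenitor, Gr1+ and Ter119+ cells. The correlation without those arrays was not computed. The genes outside the family that went with them most closely were H1f2 (0.76), Nfkbiz (0.75), Btg1 (0.74), Ccl4 (0.72) and Rgs1 (0.71).

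Across the 24 arrays without that centring, each member's nearest pattern was given by correlation. Egr1 was most like Ccl4 (0.92), a chemokine, and Jun was too (0.87). Fos was most like Dusp1 (0.95), Dusp1 and Zfp36 were most like each other (0.96), and Junb was most like Nfkbiz (0.96), an inhibitor-of-NF-kB family protein. Ier3 was most like P2rx1 (0.94), and Klf2 most like Btg1 (0.98).

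The third question was where in the hierarchy these genes are high, averaged over both strains. From LSK cells to progenitors 7 of 8 members fell (all but Klf2), where 21.2% of all genes fell. Gr1+ cells stood above progenitors for 7 of 8 (all but Jun), against 29.4% of all genes, and above Ter119+ cells for 6 of 8 (all but Jun and Klf2), against 27.2%. Between Gr1+ and LSK cells all 8 were called, 5 higher in Gr1+ cells (Fos, Junb, Dusp1, Zfp36 and Klf2) and 3 lower (Egr1, Jun and Ier3), where 67.0% of genes were called in either direction. Ter119+ and LSK cells differed for 4 of 8, against 56.7%, with Klf2 higher and Egr1, Fos and Ier3 lower in Ter119+ cells. Ter119+ cells differed from progenitors for 5 of 8, against 56.4%, with Junb, Dusp1, Zfp36 and Klf2 higher and Ier3 lower. These counts depended on the scaling. Between progenitors and LSK cells 1 member was called under median scaling (Egr1) and 4 under 75th percentile scaling (Egr1, Fos, Junb and Zfp36), in place of 7, and between Gr1+ and LSK cells 4 and 5 in place of 8. In the same order of scalings the calls were 6 and 6 between Gr1+ cells and progenitors, 5 and 5 between Gr1+ and Ter119+ cells, 2 and 3 between Ter119+ and LSK cells, and 3 and 3 between Ter119+ cells and progenitors. Calls over all genes fell as well, from 3392 to 634 and 1414 between progenitors and LSK cells and from 5310 to 2573 and 3415 between Gr1+ and LSK cells. The fall from LSK cells to progenitors kept its direction for all 8 members under both scalings.

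In the order of mean levels Egr1 was highest in LSK cells (10.97), then Gr1+ cells (9.99), Ter119+ cells (8.74) and progenitors (8.23), and only the last step did not pass the test (limma, adjusted p = 0.195). From LSK cells to progenitors Egr1 fell by 2.74 on the log2 scale (SE 0.33, limma, adjusted p = 4.22e-07). Ier3 was also highest in LSK cells (11.40), followed by Gr1+ cells (10.53), progenitors (9.59) and Ter119+ cells (8.40), and each step was called. Jun was highest in LSK cells too (6.31), followed by Ter119+ cells (5.62), Gr1+ cells (5.48) and progenitors (5.42), and no step between neighbours was called. Its calls against LSK cells in progenitors (adjusted p = 0.0434) and Gr1+ cells (adjusted p = 0.0402, limma) were lost without any one of 13 and 9 arrays.

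Fos, Junb, Dusp1 and Zfp36 shared one order, with Gr1+ cells first, then LSK cells, Ter119+ cells and progenitors. Zfp36 had the widest span, from 11.86 in Gr1+ cells to 7.71 in progenitors (4.14 ± 0.34, limma, adjusted p = 1.71e-10). Dusp1 spanned 11.92 to 8.65 (3.27 ± 0.37, limma, adjusted p = 3.87e-08), Junb 8.65 to 5.58 (3.07 ± 0.23, limma, adjusted p = 3.44e-11) and Fos 10.18 to 7.25 (2.93 ± 0.35, limma, adjusted p = 9.87e-08). LSK and Ter119+ cells, the middle pair, were not distinguished for Junb, Dusp1 or Zfp36 and were for Fos (limma, adjusted p = 0.00263), whose last step to progenitors was not called (limma, adjusted p = 0.0587). The step of Fos from LSK to Gr1+ cells (0.81 ± 0.35, limma, adjusted p = 0.0468) was lost without any one of 15 arrays, 8 of them of the LSK and Gr1+ groups, and was 0.48 without D2 LSK replicate 1.

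Klf2 alone had its highest means in the Ter119+ fraction (8.69) and in Gr1+ cells (8.66), which were not distinguished (limma, adjusted p = 0.957). LSK cells (5.38) and progenitors (4.68) lay far lower, and the difference between Ter119+ and LSK cells was 3.31 ± 0.29 without overlap of arrays. B cell and neutrophil markers were also high in the Ter119+ fraction (above), and their part in the level of Klf2 there was not tested.

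**Figure D4:**
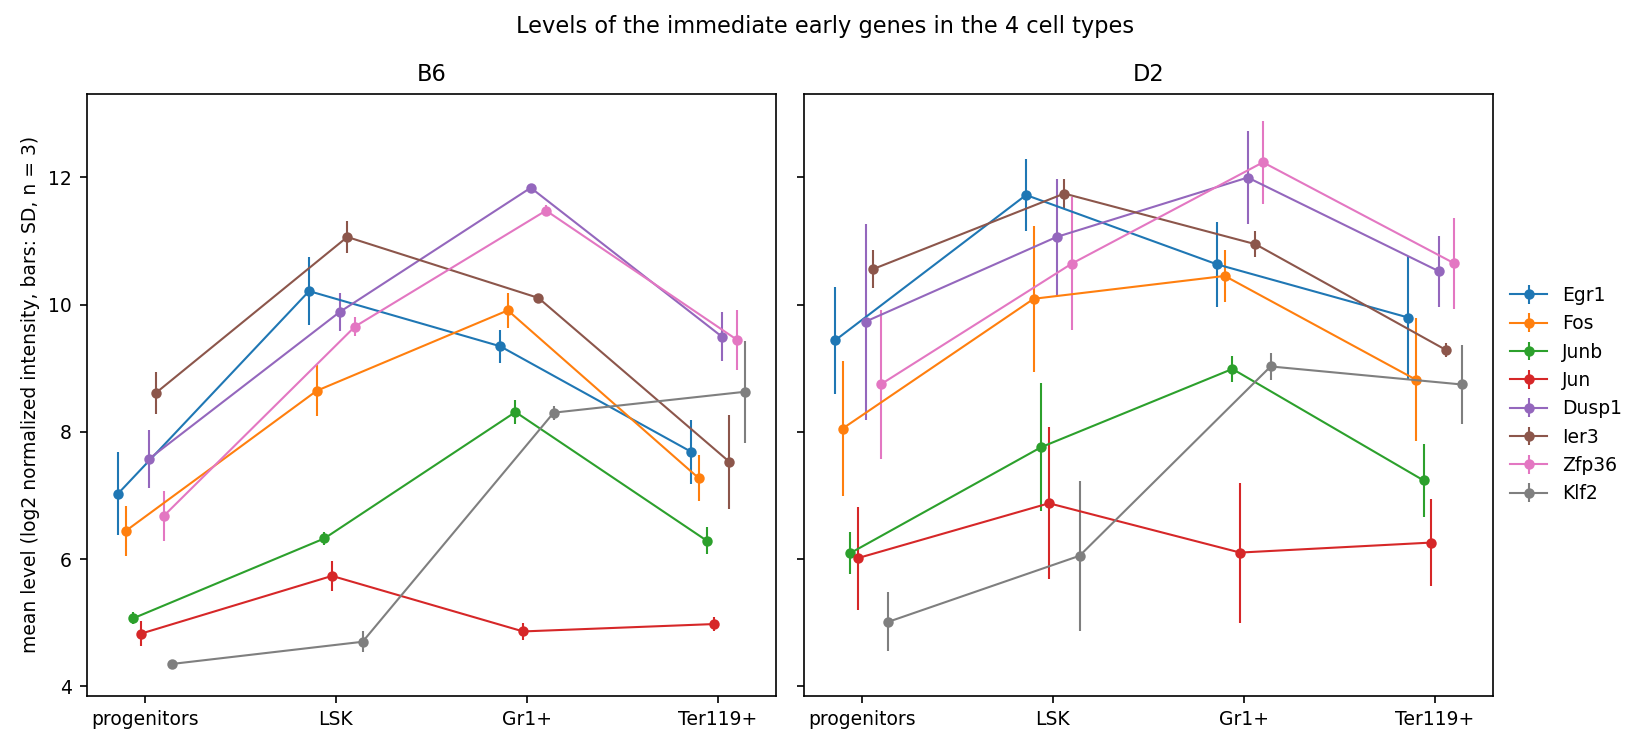
Mean level (log2 normalized intensity) of the 8 genes in the 4 cell types, B6 on the left and D2 on the right, with bars for the SD of 3 arrays; lines join one gene and compare it with itself only. Progenitors give the lowest mean for 7 of the 8 genes over both strains, and the SD bars are longer in D2 than in B6 for most groups.

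Other genes of the same pathways gave few strain calls in LSK, progenitor and Gr1+ cells and more in Ter119+ cells and on average. Of 5 further AP-1, EGR and NR4A factors tested (of 15 listed), none was called in LSK cells, progenitors or Gr1+ cells and 1 was in Ter119+ cells, Egr3 (0.86 ± 0.25, limma, adjusted p = 0.0179). Of 24 other early response genes tested (of 38 listed), 1 was higher in LSK cells, 1 in progenitors, 0 in Gr1+ cells and 7 in Ter119+ cells, where 8.13% of all genes were higher. On average over the cell types it was 7 of 24, against 9.21%. In each cell type 1 was lower, Csrnp1, a nuclear protein of the early response, by the largest margin in LSK cells (-3.21 ± 0.36, limma, adjusted p = 6.13e-07). Csrnp1 and each tested member were read by 1 kept probe. Strain variants under the probes were not looked at, so for a strain difference of such a gene the match of the probe and the amount of transcript cannot be told apart. The leading higher ones were Ppp1r15a, a stress-induced phosphatase subunit, in LSK cells (1.56 ± 0.40, limma, adjusted p = 0.0120), Socs3, a brake on cytokine signalling, in progenitors (1.21 ± 0.19, limma, adjusted p = 0.000122) and Plk3, a stress-responsive kinase, in Ter119+ cells (1.61 ± 0.38, limma, adjusted p = 0.00493). The list's medians were 0.11, 0.24, 0.22 and 0.26 in LSK, progenitor, Gr1+ and Ter119+ cells.

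The upstream kinases and SRF cofactors gave 1 call among 11 tested genes over the 4 cell types, Srf itself in Ter119+ cells (0.94 ± 0.25, limma, adjusted p = 0.0107). MAP kinase feedback genes, 8 tested, gave more lower calls than higher ones. In LSK, progenitor, Gr1+ and Ter119+ cells 1, 1, 1 and 2 were lower in D2 and 0, 0, 0 and 1 higher. On average 3 were lower and 1 was higher. Dusp7 was lower in D2 in LSK cells (-1.31 ± 0.28, limma, adjusted p = 0.00273), whereas Dusp6 was higher in Ter119+ cells (1.48 ± 0.28, limma, adjusted p = 0.000578). Of 12 NF-kB targets tested, 0, 2, 1 and 3 were higher in D2 in LSK, progenitor, Gr1+ and Ter119+ cells and none was lower, and Ccl4 led each time with a call (3.16 ± 0.56 in progenitors, limma, adjusted p = 0.000425). On average 3 of the 12 were higher.

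Heat shock and cell stress genes were listed as a second readout of cell stress. Of 14 tested, 2 were higher in D2 in LSK cells (led by Trib3, 1.21 ± 0.20, limma, adjusted p = 0.000170), none was called in progenitors or Gr1+ cells, and 4 were lower in Ter119+ cells (led by the chaperonin Hspd1, -0.99 ± 0.33, limma, adjusted p = 0.0425). Their mean level on D2 replicates 1, 2 and 3 was 8.13, 8.09 and 8.28 in LSK cells, 8.02, 7.94 and 7.87 in progenitors and 7.41, 7.50 and 7.50 in Gr1+ cells. In Ter119+ cells it was 7.63, 7.78 and 7.47. Replicate 1 was the lowest D2 array for this list in Gr1+ cells only. For the NF-kB targets and for the other early response genes it was the lowest D2 array in all 4 cell types, as for the mean of the members. For the other AP-1, EGR and NR4A factors replicate 1 was lowest in 2 cell types, and for MAP kinase feedback in 1. It was lowest in 3 for the upstream kinases and SRF cofactors, and also for committed progenitor markers and neutrophil markers. The remaining lists gave 0 to 2. The NF-kB targets read 6.06, 6.12 and 6.50 on D2 replicates 1, 2 and 3 in LSK cells, 5.35, 5.96 and 6.20 in progenitors and 7.15, 7.44 and 7.47 in Gr1+ cells. Their Ter119+ values were 6.59, 6.98 and 7.06. The other early response genes read 6.38, 6.67 and 6.78 in LSK cells, 6.07, 6.31 and 6.46 in progenitors and 7.81, 8.11 and 8.10 in Gr1+ cells. Their Ter119+ values were 7.18, 7.27 and 7.36. The labels give no time, temperature or order of sorting for the 2 strains, so a difference between strains and a difference in handling cannot be told apart.

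Neutrophil transcripts moved with the members in D2 progenitors. The mean of 8 markers was 7.57, 7.72 and 7.79 in B6 progenitors and 8.25, 8.45 and 10.12 in D2 progenitors, 4 of the 8 were called higher in D2 (led by S100a9, 1.88 ± 0.40, limma, adjusted p = 0.00326), and Cxcr2 was below detection on all 6 arrays. The mean of the members on the same arrays was 6.05, 6.62 and 6.30 in B6 and 7.09, 8.12 and 8.66 in D2. D2 progenitor replicate 3 was the highest for both, and without it 2 members were called in progenitors in place of 4. In LSK cells none of the 8 markers was called, at 8.93, 8.55 and 8.63 in B6 and 8.52, 9.96 and 9.32 in D2, with D2 replicate 1 the lowest D2 array, as it was for 7 members. In Ter119+ cells 3 of 5 B cell markers were called higher in D2. The part of other cells in the members' differences was not tested.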

How the data were processed

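Total RNA from 24 samples was hybridised to single-colour Illumina mouse WG-6 v2 arrays, 3 per group of strain and cell type, grouped by the labels. The deposited raw intensity is the probe value as the authors exported it, per the file headers and the values (67.9 to 46120) neither background-subtracted nor normalized between arrays; GenomeStudio is named, with no version, in the submitters' processing notes. A deposited column headed as a p-value holds a fraction equal to 1 minus the detection p, per the file headers and the values. The authors' series matrix holds log2 intensities within 0.00113 of quantile-normalized log2 raw values and served as an alternative. Of the 45281 probes, 34885 had 1 gene symbol, 18 had several and the rest none in GEO's platform annotation.

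Intensities were corrected by normexp with the detection p (offset 16), quantile-normalized and log2-transformed with limma 3.58.1 in R 4.3.3. Probes had to reach detection p under 0.01 on every array of some group (12668 did), and a gene was represented by its probe of highest mean (7925 genes). One mean per group was fitted over the 24 arrays (16 residual degrees of freedom), and p-values were adjusted by Benjamini-Hochberg within each comparison. The fit was tested on simulated data. Cell type comparisons average both strains. Named genes were the 9 members, the nearest patterns by correlation, and from each list the largest call in each direction; the lists and members were chosen with earlier results of these data known. Array columns of detection calls (24) were not used. Alternatives covered background, scaling, filters, probes, variance, replicate block and left-out arrays.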

Additional observations from a re-analysis of the deposited data

How the results depend on the processing

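Of 2641 alternative values of the 56 called member differences, 2367 kept their call, 274 kept the direction without the call and 0 reversed. Leaving out an array outside the groups compared cannot change a difference, so many of these values could not have reversed. Median and 75th percentile scaling lost the most calls, 35 and 28. Calls over all genes also fell under both, in every comparison of strains or cell types. The members called in LSK, progenitor and Ter119+ cells and on average were 0, 0, 0 and 0 under median scaling and 0, 0, 0 and 2 under 75th percentile scaling, and calls between cell types fell from 37 of 48 to 21 under median scaling. Without background correction, and with the series matrix, 1 was called in Gr1+ and 2 in Ter119+ cells. With no detection filter 1, 2 and 2 were called in LSK, progenitor and Ter119+ cells, and with genes detected on all 24 arrays, which dropped Jun and Klf2, 1 in LSK cells. Only the groups compared gave 0 in LSK, 4 in Gr1+ and 2 in Ter119+ cells. Array weights gave 7 in progenitors, 5 in Gr1+, 7 in Ter119+ cells and 3 by the F test. Leaving out together the 3 arrays named above gave 7 in progenitors, 2 in Gr1+ cells and 2 by the F test. D2 arrays alone gave 23 cell type calls (14 lost and 0 gained), whereas B6 arrays alone lost 0 and gained 2. With D2 replicate 1 as the lone D2 array there were 0, 1 and 1 in LSK, progenitor and Ter119+ cells and 3 on average. The replicate numbers were not taken as pairs: same-numbered arrays correlated at -0.39 to 0.37. With the replicate block 2 members were called in Gr1+ cells (Egr1, adjusted p = 0.0392, and Jun, adjusted p = 0.0437, limma), 10 further calls arose in all and none was lost; the other replicate block, of strain and number at random, changed no call, but it used the correlation over all genes (0.0203), far below that of 7 of the 8 members (0.32 to 0.84). Leaving out 1 array, or 1 replicate number of a strain, gave 0 to 7 calls in LSK cells, 2 to 7 in progenitors, 0 to 4 in Gr1+ cells, 2 to 7 in Ter119+ cells, 7 to 8 on average, 33 to 42 between cell types and 0 to 2 by the F test. Apart from scaling and background, the share of all genes called was not computed for these alternatives. The cause of these moves was not tested.

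The 59 reversals were all of differences that were not called. Under median scaling D2 minus B6 was -0.058 for Fos, -0.042 for Jun, -0.21 for Dusp1, -0.64 for Ier3 and -0.48 for Zfp36 in LSK cells and -0.39 for Klf2 in Ter119+ cells. Under 75th percentile scaling it was -0.40 for Ier3, -0.24 for Zfp36 and -0.20 for Klf2 in those cells. With D2 replicate 1 alone it was -0.22 for Jun and -0.15 for Zfp36 in LSK cells, -0.020 for Jun and -0.66 for Dusp1 in Gr1+ cells and -0.57 for Klf2 in Ter119+ cells. Ter119+ minus LSK turned to 0.17, 0.18, 0.023 and 0.024 for Junb (median scaling, 75th percentile scaling, array weights, D2 replicate 1 alone), to 0.028 and 0.035 for Dusp1 (both scalings) and to 0.42, 0.43, 0.068, 0.0043 and 0.057 for Zfp36 (both scalings, array weights, D2 arrays, D2 replicate 1 alone). Gr1+ minus progenitors turned to -0.14, -0.047, -0.17 and -0.11 for Jun (both scalings, without the 3 arrays, D2 replicate 1 alone), and without the 3 arrays Ter119+ minus progenitors was -0.016 for Jun. Gr1+ minus Ter119+ turned to 0.033, 0.20, 0.28 and 0.20 for Klf2 (array weights, without the 3 arrays, D2 arrays, D2 replicate 1 alone). Leaving out 1 array or 1 replicate number turned D2 minus B6 for Dusp1 in Gr1+ cells (-0.12 to 0.57) and Klf2 in Ter119+ cells (-0.22 to 0.56), Ter119+ minus LSK for Zfp36 (-0.39 to 0.12), Gr1+ minus Ter119+ for Jun (-0.33 to 0.18) and Klf2 (-0.19 to 0.20), and for Jun Gr1+ (-0.17 to 0.38) and Ter119+ (-0.030 to 0.37) minus progenitors. Brightness over background limits Jun, Klf2 and Ier2.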
